A study of Rattus norvegicus with 22 samples.

Results

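The keratins described here are the 10 that mark the layers of a stratified squamous epithelium, namely the basal keratins Krt5, Krt14 and Krt15, the stress keratins Krt6a, Krt16 and Krt17, and the suprabasal keratins Krt1, Krt10, Krt4 and Krt13. The set was chosen with earlier results of these data known. The probe of each keratin was matched by name alone, as the one whose deposited gene name equals the keratin's symbol. Of the 10 keratins, 9 were found among 19167 gene symbols on the array, each with a single probe, and no probe carried the name Krt6a. Expression was measured in oral squamous cell carcinomas (OSCC) of the tongue and in adjacent phenotypically normal tongue. Each of 11 male F344 rats, about 33 weeks old per the labels, gave 1 piece of each tissue, so that there were 11 OSCC arrays and 11 normal arrays in 11 pairs. The pairing by animal removes differences between rats that both tissues share.

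The OSCC pieces were lesions induced by 4-nitroquinoline-1-oxide (4-NQO), a DNA-damaging carcinogen that the rats drank at 20 ppm over 10 weeks, and the tissues were harvested 23 to 26 weeks after the first exposure. Per the labels the normal pieces had no treatment, and all 22 titles say untreated, but the deposited protocol takes both pieces from the same 4-NQO-treated rats. The normal pieces are thus carcinogen-exposed tissue that looked normal, and there is no group without exposure. Both are bulk tissue that also holds muscle, gland, stroma and immune cells. In such samples fewer cells of a type and less RNA per cell cannot be told apart.

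Keratins are the intermediate filament proteins of epithelial cells, and a filament forms only when a type I keratin pairs with a type II keratin. Basal cells of stratified epithelia make Krt5 (type II) with Krt14 (type I), and a subset of them also makes Krt15 (type I). When cells leave the basal layer they change partners, to Krt1 with Krt10 in cornified epithelia such as the epidermis and to Krt4 with Krt13 in the soft mucosa of the mouth and esophagus. Krt6 with Krt16 or Krt17 is made in wounded or hyperproliferating epithelium and in some sites of mechanical load. The question here was how these programs differ between OSCC and the normal tongue of the same rat.

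The probes that gave the values are printed here, because keratins are close relatives and a reading is only as specific as its probe. Each is 60 bases long and is written 5′ to 3′ in lower case from the array's deposited annotation. The probes of 8 keratins are given, in the order basal, stress, suprabasal.

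Krt5: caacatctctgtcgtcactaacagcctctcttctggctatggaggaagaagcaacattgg
Krt14: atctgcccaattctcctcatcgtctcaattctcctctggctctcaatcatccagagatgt
Krt15: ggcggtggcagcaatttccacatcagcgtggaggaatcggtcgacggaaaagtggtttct
Krt16: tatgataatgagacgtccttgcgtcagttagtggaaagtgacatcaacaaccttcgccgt
Krt17: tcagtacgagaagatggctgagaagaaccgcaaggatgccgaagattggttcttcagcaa
Krt10: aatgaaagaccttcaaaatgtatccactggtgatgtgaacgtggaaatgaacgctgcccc
Krt4: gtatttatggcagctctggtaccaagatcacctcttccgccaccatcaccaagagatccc
Krt13: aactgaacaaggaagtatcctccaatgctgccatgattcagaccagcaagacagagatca

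The longest run of bases that any 2 of the 9 member probes had in common was 8 of 60, so the probes themselves are distinct, although binding to transcripts of other keratins was not tested. In rat assembly rn4, as the array annotation gives it, the type I genes lay together on chromosome 10, all on the minus strand. Their probes were at chr10:88290359-88290418 (Krt10), chr10:89058742-89058801 (Krt13), chr10:89072179-89072238 (Krt15), chr10:89144454-89145130 (Krt14), chr10:89176869-89176928 (Krt16) and chr10:89187269-89187328 (Krt17). The Krt14 probe covered 677 bases of the genome, so its 60 bases are not contiguous there. The type II probes of Krt1 and Krt4 were on chromosome 7, at chr7:140541022-140541081 and chr7:140622673-140622732, and the annotation gave the Krt5 probe no position. It does not say in which exon a probe lies.

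Values below are log2 expression, with 0 at the 75th percentile of the array, so that a difference of 1 is 2-fold. The change of a gene is its value in OSCC minus its value in the normal tissue of the same rat, and a gene is called higher or lower when it changed 2-fold or more and limma gave an adjusted p below 0.05 over all 30367 probes. The median change of all probes was -0.24 on this scale. All 9 keratins were well above background on all 11 normal arrays and, except Krt10 and Krt16 in the OSCC of animal 24, on all OSCC arrays. None was saturated on any array.

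Of the 9 keratins measured, 1 was called lower in OSCC (Krt15) and 1 was called higher (Krt10), and 7 passed in neither direction. Over all probes, 6.97% were called lower and 6.86% were called higher, 13.8% in all, so that 1 of 9 in each direction was near that background. Of the basal keratins Krt15 was far lower while Krt5 and Krt14 were not called. The stress keratins Krt16 and Krt17 were above their normal piece in nearly every rat, and neither was called. Of the suprabasal keratins only Krt10 was called. Krt1, like Krt10, was above the normal piece in most rats, Krt4 was below it in most, and Krt13 went both ways. In 1 rat, animal 24, all 9 keratins were lower in OSCC.

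**Figure D1:**
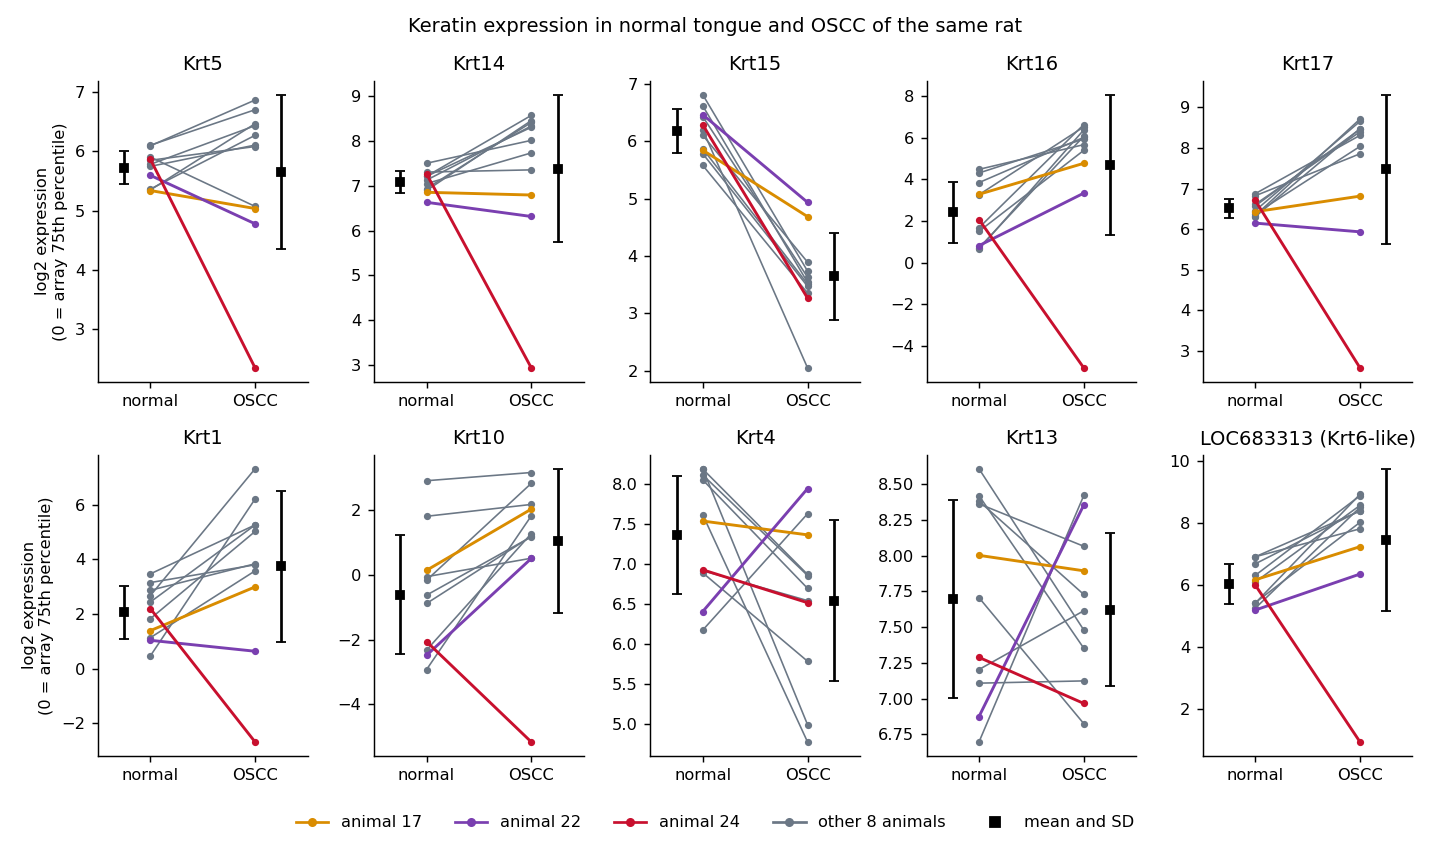
Log2 expression of the 9 keratins and of LOC683313, a Krt6-like gene, in normal tongue and OSCC, with a line for each of the 11 rats and squares for the mean with its SD (y axis: log2 signal, 0 at the 75th percentile of the array, with a scale of its own in each panel). All 11 lines of Krt15 descend, whereas for Krt16 and Krt17 most lines ascend and that of animal 24 falls from 2.07 to -5.05 and from 6.71 to 2.59.

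Krt15, a type I keratin of basal cells, was the one keratin that separated the tissues completely. In the normal pieces it ranged from 5.58 to 6.81 with a median of 6.20, and in OSCC from 2.05 to 4.94 with a median of 3.54. Every OSCC value lay below every normal value. The change was -2.54 ± 0.23 (SE, n = 11 pairs), which is 5.81-fold lower, with an adjusted p of 7.0e-05 (limma). It was lower in 11 of 11 pairs, from -1.16 in animal 17 to -4.15 in animal 21, and 5.25% of all probes were lower in all 11 pairs.

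Krt14, the type I partner of Krt5, did not follow Krt15. It ranged from 6.63 to 7.50 (median 7.12) in normal tissue and from 2.94 to 8.57 (median 8.01) in OSCC. The change was 0.29 ± 0.45 (SE, n = 11 pairs), with an adjusted p of 0.60 (limma). OSCC lay above all normal pieces in 7 rats, below all of them in 2 and among them in 2, so the tumors spread to both sides of a narrow normal range.

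Krt5, the type II keratin of basal cells, gave a similar picture. It ranged from 5.34 to 6.10 (median 5.78) in normal tissue and from 2.34 to 6.87 (median 6.11) in OSCC, and OSCC was above the normal range in 6 rats and below it in 4. The change was -0.08 ± 0.36 (SE, n = 11 pairs; adjusted p = 0.87, limma). Without animal 24 it was 0.27, and that of Krt14 was 0.76 with an adjusted p of 0.013 (limma), short of 2-fold, whereas Krt15 stayed at -2.49.

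The basal keratins were then compared with each other. The difference between the changes of 2 genes in the same rat does not depend on the constant by which an array is scaled, and it was tested for 8 pairs of keratins by an exact permutation test that flips the signs of the 11 pairs (two-sided), with Benjamini-Hochberg adjustment over the 8. The smallest p this test can give is 0.00098. Krt14 exceeded Krt15 by 2.83 log2 units (95% interval 1.56 to 4.10), in 10 of 11 pairs (exact permutation p = 0.0039, adjusted p = 0.016), and by 2.83 in the 9 pairs scanned on different days alone (adjusted p = 0.063, exact permutation). Krt5 was below its partner Krt14 by 0.37 (interval of the difference -0.70 to -0.04), in 10 of 11 pairs, with an adjusted p of 0.061 by the exact permutation test.

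The stress keratins Krt16 and Krt17 had the largest median change of the 3 groups, 1.62, beside 0.79 for the suprabasal and -0.08 for the basal keratins. Neither of them was called by limma, 1 of them had an unadjusted p below 0.05, and the paired t-test with adjustment called neither. The share of all probes with an unadjusted p below 0.05, whatever their fold, is not given. Krt16, induced in wounded and hyperproliferative epithelium, ranged from 0.65 to 4.49 (median 2.07) in normal tissue and from -5.05 to 6.64 (median 5.94) in OSCC. In 9 rats OSCC was above every normal piece, in animal 22 it was within the normal range, and in animal 24 it was far below it. The change was 2.28 ± 0.94 (SE, n = 11 pairs), or 4.86-fold, with an adjusted p of 0.065 (limma), and it was positive in 10 of 11 pairs.

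Krt17, the other type I keratin of this group, varied little among normal pieces, from 6.15 to 6.87 (median 6.46). In OSCC it ranged from 2.59 to 8.71 (median 8.31), above all normal pieces in 8 rats, below all of them in 2 and among them in 1. The change was 0.96 ± 0.51 (SE, n = 11 pairs; adjusted p = 0.13, limma). Krt16 exceeded Krt17 in change by 1.32 in 9 of 11 pairs, with an adjusted p of 0.064 by the exact permutation test.

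Animal 24 decided these calls. Without its pair, 4 of the 9 keratins were called higher, beside 7.29% of all probes, and 1 was called lower, beside 8.52%. Those called higher were Krt16 at 3.22 ± 0.48 (SE, n = 10 pairs; adjusted p = 0.00065, limma), Krt17 at 1.47 (adjusted p = 0.0011), Krt1 at 2.35 (adjusted p = 0.0047) and Krt10 at 2.13 (adjusted p = 0.0025). Unequal changes that missed the threshold over 11 pairs passed it without this pair, with Krt5 minus Krt14 at -0.49 (adjusted p = 0.0052), Krt16 minus Krt17 at 1.75 (adjusted p = 0.0078) and Krt1 minus Krt4 at 3.21 (adjusted p = 0.0089), all by the exact permutation test. The choice to leave out this pair alone was made after its values were seen.

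In animal 24 the changes were -7.12 for Krt16, -4.89 for Krt1, -4.33 for Krt14, -4.12 for Krt17, -3.53 for Krt5, -3.10 for Krt10 and -3.02 for Krt15, but only -0.41 for Krt4 and -0.32 for Krt13. Krt16 and Krt10 were not well above background in that tumor, so their -7.12 and -3.10 rest on signals near background. Measured to the background limit, they were at least 102-fold and 5.83-fold lower. The normal piece of the same rat had ordinary values, 3rd to 8th of 11 in each keratin, so the tumor and not its normal piece stood apart.

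Marker genes of cell types were also read in this rat, and not all of them moved in the direction of the keratins. The mean change of 7 epithelial markers was -1.33 in animal 24, the lowest of 11 pairs, where the others ran from -0.14 to 0.93. The mean of 5 proliferation markers was -2.61, beside -1.14 to 1.54 in the other pairs. The 7 serous gland markers had a mean change of 11.3 there, beside 10.3, 10.7 and 11.8 in animals 9, 16 and 17. The 8 skeletal muscle markers had 1.87, beside 2.31 in animal 21 and 1.71 in animal 22. The mean of the 7 myeloid markers was 0.26, the lowest of 11 pairs, and that of the 5 endothelial markers was 0.51, the highest. The part of cell makeup in the keratin values of animal 24 was not tested.

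**Figure D2:**
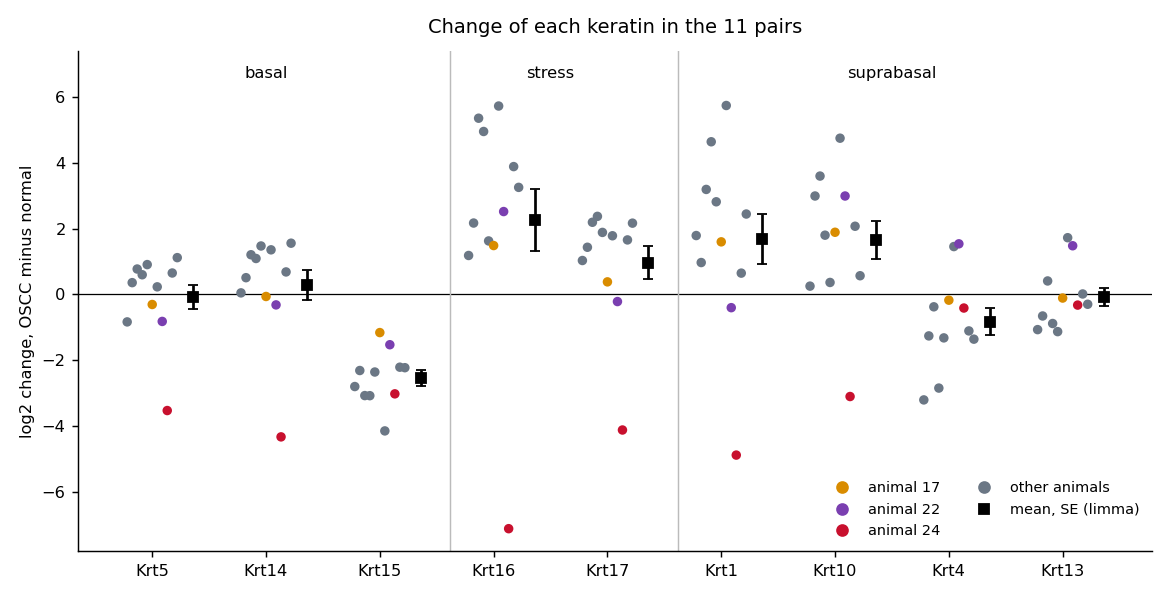
Change of each of the 9 keratins in the 11 pairs (y axis: log2 OSCC minus normal; x axis: keratins by layer), with a point for each rat and a square for the limma mean with its SE. Animal 24 is the lowest point for Krt5, Krt14, Krt16, Krt17, Krt1 and Krt10, down to -7.12 in Krt16, while all 11 points of Krt15 lie between -4.15 and -1.16.

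Krt6a itself has no value here. The nearest gene on the array was LOC683313, described there as similar to keratin 6a and named Krt6c, with Krt6a among its synonyms, in the RefSeq table of assembly GRCr8. It was taken up after the files were examined, and it is not counted among the 9. Its brightest probe ranged from 5.20 to 6.91 (median 6.10) in normal tissue and from 0.95 to 8.92 (median 8.39) in OSCC, above every normal piece in 9 rats and below them in animal 24. The change was 1.42 ± 0.63 (SE, n = 11 pairs; adjusted p = 0.080, limma). Its 2 dimmer probes gave 2.06 (adjusted p = 0.019) and 2.40 (adjusted p = 0.015) and were called higher, so the 3 probes agreed in direction, each higher in 10 of 11 pairs, and not in the call. LOC683313 was below Krt16 in change by 0.86 (interval of the difference -1.72 to 0.01), in 9 of 11 pairs, with an adjusted p of 0.064 by the exact permutation test, and by 1.15 without animal 24 (adjusted p = 0.0063, exact permutation). This contrast was run for the brightest probe alone, and the other 2 changed by 2.06 and 2.40 beside 2.28 for Krt16.

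The suprabasal keratins of cornified epithelia, Krt1 and Krt10, were above the normal piece in most rats. Krt10, a type I keratin, ranged from -2.93 to 2.91 (median -0.63) in normal tissue and from -5.17 to 3.16 (median 1.28) in OSCC. The groups overlapped, with 9 OSCC pieces inside the normal range, yet the tumor exceeded its own normal piece in 10 of 11 pairs. The change was 1.66 ± 0.57 (SE, n = 11 pairs), 3.15-fold, with an adjusted p of 0.035 (limma). The call was lost in 7 of the 11 fits that left out 1 pair, those without animal 9, 11, 13, 21, 22, 25 or 26 (adjusted p from 0.050 to 0.076, limma), without the pairing by animal (adjusted p = 0.094, limma) under quantile normalization (adjusted p = 0.069, limma), with slide as a random block (adjusted p = 0.10, limma), in the 9 pairs scanned on different days (adjusted p = 0.098, limma), with scan day as a term (adjusted p = 0.41, limma) and by the paired t-test after adjustment.

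Krt1, the type II partner of Krt10, ranged from 0.46 to 3.46 (median 2.20) in normal tissue and from -2.69 to 7.31 (median 3.84) in OSCC, above all normal pieces in 8 rats. The change was 1.69 ± 0.76 (SE, n = 11 pairs; adjusted p = 0.083, limma), the same size as that of Krt10, and positive in 9 of 11 pairs. Krt1 minus Krt10 was 0.03, with a wide interval of -1.34 to 1.41 and an exact permutation p of 0.96. Equal means over the pairs do not show that the 2 changed together in a rat.

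Krt4 and Krt13, the pair of soft oral mucosa, passed the test in neither direction. Krt4, of type II, ranged from 6.17 to 8.19 (median 7.54) in normal tissue and from 4.77 to 7.95 (median 6.70) in OSCC, below all normal pieces in 3 rats and within their range in 8. The change was -0.82 ± 0.41 (SE, n = 11 pairs; adjusted p = 0.11, limma). It was negative in 9 of 11 pairs and positive only in animals 21 and 22, at 1.46 and 1.54. Without animal 21 or without animal 22 Krt4 was called lower, at -1.05 (adjusted p = 0.041, limma) and -1.06 (adjusted p = 0.039, limma), and without animals 21, 22 and 24 it was -1.46 (adjusted p = 0.0050, limma), where Krt15 and Krt4 were called lower, beside 14.1% of all probes, and the same 4 as without animal 24 were called higher, beside 8.69%.

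Krt13, its type I partner, ranged from 6.70 to 8.61 (median 7.71) in normal tissue and from 6.82 to 8.42 (median 7.62) in OSCC, so that all 11 tumors lay within the normal range. The change was -0.08 ± 0.27 (SE, n = 11 pairs; adjusted p = 0.83, limma), from -1.13 in animal 16 to 1.73 in animal 21. Its direction was not settled, since it was negative in 7 pairs and positive in 4, and it became 0.33 under quantile normalization.

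The suprabasal keratins were compared in the same way. Krt10 exceeded Krt13 in change by 1.73 (95% interval 0.57 to 2.89), in 10 of 11 pairs, with an exact permutation p of 0.012 and an adjusted p of 0.031. That adjusted p was 0.052 to 0.063 by the exact permutation test without animal 4, 9, 11, 13, 16, 17, 21 or 25. Krt4 was below Krt13 by 0.75 (interval of the difference -1.26 to -0.24), in 10 of 11 pairs, with an adjusted p of 0.016 by the exact permutation test. In the 9 pairs scanned on different days the adjusted p was 0.10 for Krt10 minus Krt13 and 0.063 for Krt4 minus Krt13 by the exact permutation test. Krt1 exceeded Krt4 by 2.51 in 9 of 11 pairs, at an adjusted p of 0.061 by the exact permutation test. Under quantile normalization, which alters each array's distribution, Krt10 minus Krt13 was 1.29 (adjusted p = 0.088, exact permutation) and Krt4 minus Krt13 was -0.77 (adjusted p = 0.051, exact permutation).

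**Figure D3:**
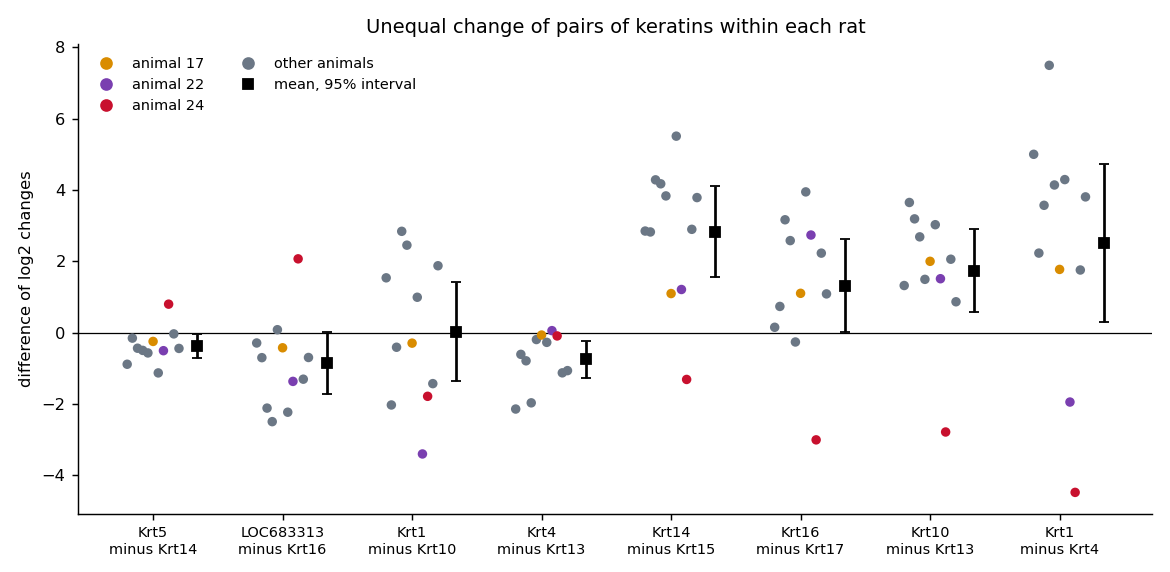
Difference between the log2 changes of 2 keratins in the same rat (y axis), for the 8 pairs tested, with a point for each of 11 rats and a square for the mean with its 95% interval. Krt14 minus Krt15, at 2.83, lies above 0 in all rats but animal 24, and Krt4 minus Krt13, at -0.75, lies below 0 in 10 rats.

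Whether filament partners changed together was examined by the correlation of their changes over pairs, leaving out pairs separated from the rest by a gap of over 30% of the range. These are 4 relations, with Benjamini-Hochberg adjustment over the 4. Over the 10 pairs without animal 24, Krt5 and Krt14 had r = 0.89 (adjusted permutation p = 0.0016) and rho = 0.83 (adjusted permutation p = 0.0093), and r was 0.80 without the farthest 2. LOC683313 and Krt16 had r = 0.93 (adjusted permutation p = 0.00092) and rho = 0.92 (adjusted permutation p = 0.0024), and r was 0.88 without the farthest 2. All changes share the arrays' scaling and the makeup of the pieces, and Krt5 and Krt17, which are not counted as partners here, had r = 0.86 over the same 10 pairs, as a description chosen after the values were seen. 

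Of the suprabasal partners, Krt1 and Krt10 had r = 0.25 (permutation p = 0.49) and rho = 0.07 (permutation p = 0.86) over the same 10 pairs, and r was -0.33 without the farthest 2. In animal 22, for example, Krt10 was higher in OSCC and Krt1 was lower. Krt4 and Krt13 had r = 0.73 (adjusted p = 0.033, exact permutation) and rho = 0.72 (adjusted p = 0.049, exact permutation) over 9 pairs without animals 21 and 22. Animals 4 and 13, at -3.21 and -2.85 in Krt4, also stood apart from the next value, -1.36, and were kept. Without animals 4 and 13, the farthest 2, r was 0.60 over 7 pairs, and no p was computed. Whether these correlations differ from each other was not tested.

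**Figure D4:**
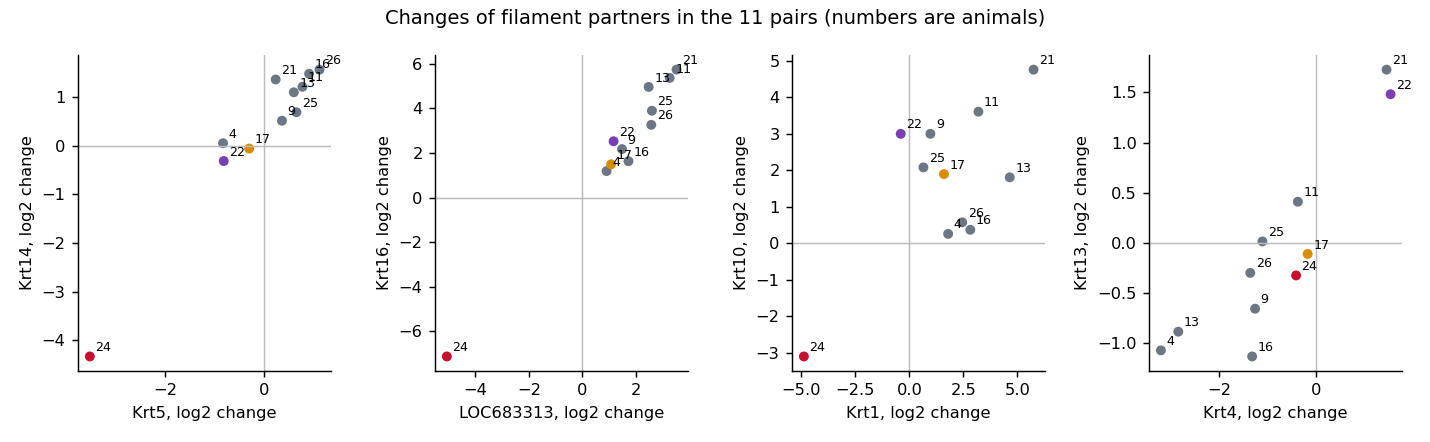
Log2 changes of 4 filament partnerships, type II keratin on the x axis and type I keratin on the y axis, with a point for each of the 11 rats and its number. Krt5 with Krt14 and LOC683313 with Krt16 lie along a line, animal 24 stands alone at the low end of both, and Krt1 with Krt10 scatter, with r = 0.25 over 10 pairs.

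The spread among normal pieces differed from keratin to keratin. The SD over the 11 normal pieces was 0.28 for Krt5, 0.25 for Krt14 and 0.23 for Krt17, but 1.46 for Krt16 and 1.83 for Krt10. The 5 normal pieces with the highest Krt13, those of animals 4, 9, 16, 17 and 26, were also the 5 with the highest Krt16 and the 5 with the highest Krt10, and 4 of them were among the top 5 for Krt4. For Krt15 only 1 of those 5 was among its top 5. Over all 11 OSCC pieces the SD was 3.37 for Krt16 and 2.23 for Krt10, above that in normal tissue. Without animal 24 it was 0.99 for Krt16 and 0.90 for Krt10, below that in normal tissue, while it stayed above it for Krt5 (0.75), Krt14 (0.77) and Krt1 (1.86, beside 0.97 in normal tissue).

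The Krt16 change of a rat contains the level of its normal piece, which varied. The 3 lowest normal values, 0.65 in animal 21, 0.71 in animal 11 and 0.82 in animal 22, gave changes of 5.73, 5.36 and 2.52, and the 2 highest, 4.49 in animal 4 and 4.31 in animal 16, gave 1.19 and 1.63. A change and its own normal value share that value, so no correlation is given. Where on the tongue each piece was taken is not in the labels.

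Scan day limits every one of these comparisons. All 11 normal arrays and the OSCC arrays of animals 4 and 9 shared 1 scan day, the remaining 9 OSCC arrays had another, and no slide held both tissues. In animals 4 and 9 alone Krt15 changed by -2.80 and -2.31, Krt16 by 1.19 and 2.17, Krt17 by 1.03 and 1.44 and Krt4 by -3.21 and -1.26. Those of the other 9 pairs had medians of -2.36, 3.26, 1.79 and -0.41 in the same order. With scan day as a term, a fit that rests on those pairs alone for the tissue effect, Krt15 was at -2.56 with an adjusted p of 0.085 (limma), and none of the 9 keratins was called, beside 0% of all probes called higher and 0.00988% called lower. Without adjustment, at a p under 0.05 and the same fold, that fit had 0 of the 9 keratins higher and 2 lower, Krt15 and Krt4, beside 6.33% and 25.2% of all probes.

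The epithelial markers were also compared between the tissues. The summed level of the 7 epithelial markers on the array was 7.46 to 8.21 in normal tissue and 5.61 to 7.07 in OSCC, without overlap. Of the 7, 1 was called lower, Lgals7, an epithelial galectin, at -1.76, which makes up much of that sum, 1 was called higher, the transcription factor Elf3 at 1.37, and 5 were not called. When each array was instead scaled to the mean of these 7 genes, Krt15 was at -2.64 (adjusted p = 8.1e-05, limma), Krt10 at 1.55 (adjusted p = 0.031, limma) and Krt16 at 2.18, and the calls of the 9 keratins were the same, beside 5.53% of all probes called higher and 7.25% called lower. Among other cell types, 4 of 8 skeletal muscle markers were called lower and 1 higher, 6 of 7 serous gland, 6 of 7 fibroblast, 7 of 7 myeloid and 4 of 6 lymphoid markers were called higher, and the 5 endothelial and 5 proliferation markers were not called (3 and 0 of them had an unadjusted p below 0.05 in limma, and the paired t-test with adjustment called none). The limma counts of markers are from the reported fit, which called 6.86% of all probes higher and 6.97% lower. These shares do not apply to the marker counts at an unadjusted p, which set no fold. The part of these cell types in the keratin changes was not tested.

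Genes that work with these keratins were followed as lists. The called counts of all these lists stand beside 6.86% of all probes called higher and 6.97% called lower. Those shares do not apply to counts at an unadjusted p below 0.05, which set no fold and have no share of all probes beside them. Of 10 other stratified keratins on the array, 3 were called higher and 7 were not, with a median change of 0.01. They were Krt80, a keratin of differentiating epithelia, at 2.11 (adjusted p = 0.0035, limma), Krt12, best known from the cornea, at 2.04 (adjusted p = 0.012, limma), and Krt78 at 1.35. Krt76, a keratin of the palate and gingiva, was at -0.12. In limma 5 of the 10 had an unadjusted p below 0.05, the 3 called higher, Krt24 at -1.75 and Krt2 at -0.91. Krt24 was lower in 8 of 11 pairs, and Krt2 was well above background on 2 of 11 normal arrays.

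Keratin filaments are anchored to neighboring cells by desmosomes and to the basement membrane by hemidesmosomes. Of 11 desmosome genes, 3 were called higher, namely Dsc2 at 1.49 (desmocollin), Dsg2 at 1.24 and Dsg3 at 1.07 (desmogleins), and 8 were not called. Dsg2 was well above background on 1 of 11 normal arrays, so the size of its change is uncertain. Desmoplakin (Dsp), which ties keratin to the desmosome, was at -0.10. Among the hemidesmosome genes the integrin Itga6 was called higher, at 1.77 (adjusted p = 0.00040, limma), in 11 of 11 pairs, where 4.61% of all probes were higher in every pair. Itgb4, the partner of Itga6 in the hemidesmosome, was at 0.28.

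Of 10 genes of the cornified envelope, the protein shell of the outermost cells, 3 were called higher and 7 were not, with a median of 0.75. They were Sprr1b at 2.40 (adjusted p = 0.011, limma), filaggrin (Flg) at 1.89 (adjusted p = 0.037, limma) and cornifelin (Cnfn) at 1.05, and the transglutaminase Tgm3 was at 0.23. Flg was well above background on 4 of 11 normal arrays. Of 10 genes of keratinocyte activation, 6 were called higher, with the cytokine Il1b at 4.17 (adjusted p = 0.0013, limma) and the growth factor Areg at 3.97 (adjusted p = 0.0031, limma) in front, and Stat3 was at 0.02. Areg was well above background on 7 of 11 normal arrays. In these bulk pieces 7 of 7 myeloid markers were called higher too, and which cells gave the values of this list was not tested. Of 15 transcription factors and regulators of squamous cells 0 were called by limma, and 0 by the paired t-test after adjustment, although 5 had an unadjusted p below 0.05 in limma. Klf4 was not among those 5 and had the smallest log2 change of the 15, 0.01 (adjusted p = 0.96, limma).

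The simple keratins, those of single-layered and glandular epithelia, had another scale of change. Of 5 on the array 4 were called higher and 1 was not, with a median of 3.19. Krt8 was at 4.32 (adjusted p = 0.00027, limma) in 11 of 11 pairs, but it was well above background on 2 of 11 normal arrays, and Krt7, which sets the median, on 1 of 11, so that the size of these changes rests on signals near background. Krt18, its partner, was well above background on 0 of 11 normal arrays and was at least 12.9-fold higher in OSCC, where it was well above background on 9 of 11 arrays. Glands also express simple keratins, 6 of 7 serous gland markers were called higher, and the part of gland in these values was not tested.

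**Figure D5:**
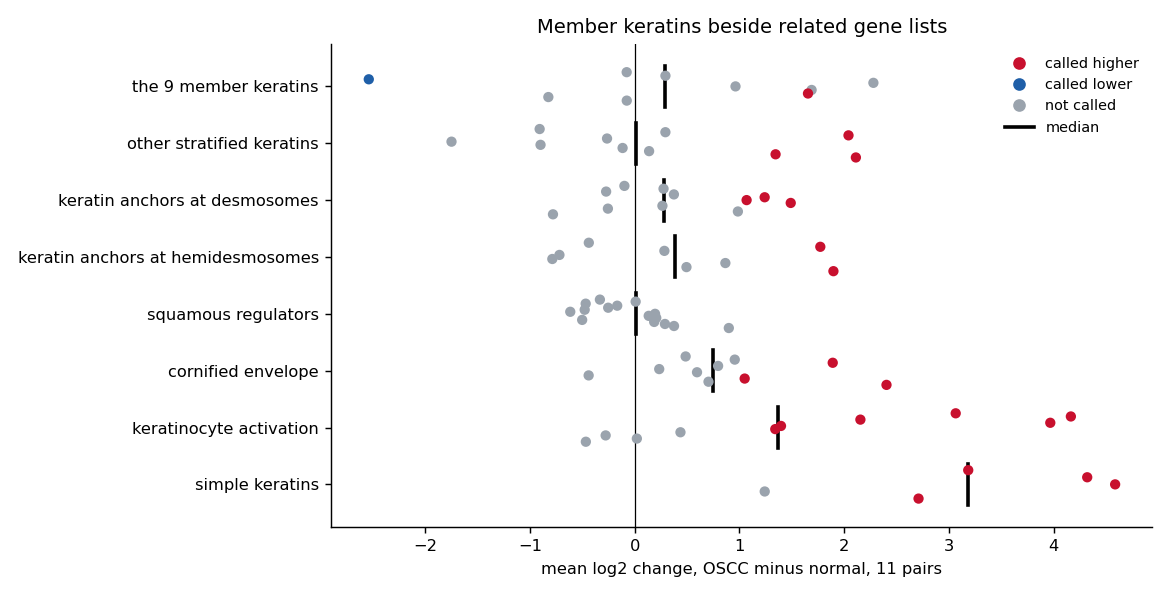
Mean log2 change over the 11 pairs (x axis: OSCC minus normal) of the 9 keratins and of the genes of 7 related lists, with a point for each gene, colored by its limma call, and a line at the median of each list. Krt15, at -2.54, is the one gene called lower in the plot, and the medians run from 0.01 for the squamous regulators to 3.19 for the simple keratins, whose fitted value for Krt18 depends on signals near background.

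Promoter sequence was in the reference table for 3 of the members, from RefSeq assembly GRCr8. One is shown for each of the programs of the basal layer, the soft mucosa and the cornified epithelium, as the 100 bases before the gene's start on the minus strand, with TATAAA in capitals where it occurs. The windows are at chr7:134730570-134730669 (Krt5), chr7:134930714-134930813 (Krt4) and chr10:84839161-84839260 (Krt10).

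Krt5: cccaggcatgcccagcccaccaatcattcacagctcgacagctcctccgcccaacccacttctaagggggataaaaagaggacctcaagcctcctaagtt
Krt4: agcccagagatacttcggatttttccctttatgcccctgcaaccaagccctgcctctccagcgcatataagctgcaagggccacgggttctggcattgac
Krt10: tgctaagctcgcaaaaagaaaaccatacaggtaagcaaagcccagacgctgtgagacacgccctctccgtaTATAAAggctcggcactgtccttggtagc

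Over the whole 300-base window, searched on both strands, Krt10 held TATAAA 29 bases before the start, a motif in 14.2% of all 33469 windows. Krt4 held TGANTCA, the AP-1 motif, 249 bases before the start and GCCNNNGGC, the AP-2 motif, 111 bases before it, which are in 7.33% and 15.1% of windows. The Krt5 window held none of the 3. These are matches of letters, and no binding was measured.

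By the likeness of their changes over the 11 pairs, among 11637 genes outside the members, the genes nearest to the mean of the basal keratins were Trim41 (r = 0.98), Tcfap2a (r = 0.97), Arhgef4 (r = 0.96) and Cttn (r = 0.96). Nearest to the mean of Krt16 and Krt17 were LOC683313 (r = 0.99), Ltb4r2 (r = 0.98), Pkp1 (r = 0.97) and Ftsj3 (r = 0.96). Nearest to the mean of Krt1 and Krt10 were Mad2l1bp (r = 0.94), LOC683313 (r = 0.93), Mtmr15 (r = 0.92) and Ltb4r2 (r = 0.91). For Krt4 with Krt13 they were RGD1307648 (r = 0.97), Sdr16c6 (r = 0.97), Calm4 (r = 0.95) and Notch3 (r = 0.94). These values describe the 11 pairs, which share the arrays' scaling, and the first 3 groups also share the low values of animal 24. Of these genes 1 was itself called, Sdr16c6 at 1.46 (adjusted p = 0.026, limma).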

How the data were processed

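RNA of 11 OSCC and 11 normal tongue pieces was hybridized to 22 one-color arrays of 42877 spots for 30367 probes. The intensity values deposited by the authors are processed signals of Feature Extraction 9.5.3.1, background-subtracted and on a linear scale. The authors also deposited a ratio table, the signal over the array's 75th percentile (within 2% for 99.9% of values at or above 0.5), used as an alternative. Here, 9196 outlier spots (0.975%) were dropped, log2 signals were averaged per probe, and the 75th percentile was subtracted, with all probes kept whatever their signal. limma 3.58.1 in R 4.3.3 fitted animal and tissue, with Benjamini-Hochberg adjustment over 30367 probes, and was tested on simulated data. Both tissues came from 1 animal, and the deviations of same-animal samples correlated between -0.21 and 0.24 (median -0.02). The paper names a t-test. Well above background were 48.4% to 56.1% of spots in normal tissue and 52.3% to 65.5% in OSCC, and the number of arrays limits precision.

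Members and lists were chosen with earlier results of these data known. Named are all members, the genes that a count of 5 or fewer needs, for each list the 2 called genes with the largest change and the 1 with the smallest change among those well above background on all arrays, and the 4 genes most like each group. Of the list genes 6 were found by accession, through the RefSeq table of GRCr8, which matched 17328 probes. Alternatives covered scaling, background correction, the authors' values, test, animal, slide and day terms, low signal, and samples. For the hemidesmosome list, part of the result is not reported here.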

Additional observations from a re-analysis of the deposited data

How the results depend on the processing

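No result stands free of the scan day, which all but 2 pairs confound with tissue. Of 30367 probes 4201 were called in the reported fit, 1701 with normexp background correction, 3 with scan day as a term, 13265 in the 2 pairs scanned on 1 day, 6924 without animals 21, 22 and 24, and 3649 to 4799 with 1 pair left out. Without the pairing by animal (no replicate block) 4227 probes were called. Of the 9 keratins 0 were then called higher, beside 6.91% of all probes, and 1 lower, beside 7.01%.

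Of the 9 keratins, 0 were called higher (1 in the reported fit) in the settings named next, each with the share of all probes called higher. They were quantile normalization (6.39%), no replicate block (6.91%), scan day (0%), slide as a random block (5.9%), the 9 pairs of different days (5.73%) and the paired t-test with adjusted p (6.52%). Called higher were 4 in the 2 pairs of 1 day (beside 10.1% of all probes) and 4 without animals 21, 22 and 24 (8.69%). With 1 pair left out 0 to 4 were called higher (beside 5.96% to 7.51% of all probes). Called lower (1 in the reported fit) were 2 with array median scaling (beside 10.4% of all probes), in the 2 pairs of 1 day (33.6%) and without those 3 animals (14.1%). With scan day 0 were called lower (beside 0.00988%), and with 1 pair left out 1 to 2 were (beside 5.89% to 8.52%). The fit of the 2 pairs gave each of the 9 keratins the same SE, 0.42. Its calls therefore do not rest on the spread of each gene and give no separate evidence from a single day. Krt13 reversed to 0.013 with the percentile of detected probes, 0.10 in the 9 pairs and 0.33 with quantile normalization, and ran from -0.26 to 0.030 with 1 pair left out. Krt5 reversed to 0.012 with the percentile of detected probes, to 0.41 without animals 21, 22 and 24, and to 0.32 with quantile normalization, and ran from -0.20 to 0.27. Krt1 minus Krt10 reversed to -0.24 in the 2 pairs of 1 day and ran from -0.25 to 0.38.

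Past the threshold no longer were Krt4 minus Krt13 (-0.77) and Krt10 minus Krt13 (1.29) with quantile normalization, and in the 9 pairs Krt4 minus Krt13 (-0.61), Krt14 minus Krt15 (2.83) and Krt10 minus Krt13 (1.56). Newly past it were Krt5 minus Krt14, LOC683313 minus Krt16, Krt16 minus Krt17 and Krt1 minus Krt4, at -0.40, -1.13, 1.53 and 2.47 with normexp and at -0.41, -0.99, 1.35 and 3.72 without animals 21, 22 and 24. With 1 pair left out they ran from -0.49 to -0.29, -1.15 to -0.69, 1.05 to 1.75 and 2.02 to 3.21, and Krt10 minus Krt13 from 1.54 to 2.18. A paired t-test on log2 values, at the unadjusted threshold, called 1 keratin higher (Krt10) and 1 lower (Krt15). Of all 30367 probes it called 2106 higher and 2142 lower at that threshold. This test is not identical to the paper's paired t-test, which used values scaled to the mean of each pair. The paper lists Krt16 and Krt1 as higher too, beside Krt10, and Krt15 as lower. The cause of these moves was not tested. The median change of all probes moved from -0.24 to -0.44 with array medians and -0.03 with quantile normalization. The mean over probes of a symbol was not run, since each keratin has 1 probe.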
